A study of Mus musculus with 7 samples.

Results

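The solute carrier (Slc) genes encode the largest group of membrane transporters in the mouse, and 99 of them carried at least 1 listed m6A peak in muscle or in C2C12 myoblasts. They were taken by name, as every gene of either peak list whose symbol starts with Slc followed by a digit, and they stand among 6392 genes listed in all. The muscle table held 58 of them with 79 peaks, out of 3980 genes with 5412 peaks. The C2C12 list held 67 of them with 84 peaks, out of 3970 genes with 5433 peaks. Of the 99 genes, 26 were in both lists, 32 were in the muscle table only and 41 were in the C2C12 list only. Slc7a6os, a member of the C2C12 list, meets the naming rule but is named for its position beside Slc7a6 and is not a carrier.

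Solute carriers move sugars, amino acids, ions, metals, vitamins, lipids and nucleotides across the plasma membrane and across the membranes of mitochondria, lysosomes and the Golgi, without splitting ATP themselves. In skeletal muscle they supply glucose, fatty acids, creatine and taurine, and export lactate. N6-methyladenosine (m6A) is placed on mRNA by the METTL3 complex, mostly at an adenosine within the GGAC type of sequence and often near the stop codon or in the 3'UTR, and it is known to affect the decay and translation of the mRNA.

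The series used m6A MeRIP-Seq, in which fragments of poly(A) mRNA are captured with an antibody against m6A (IP) and sequenced beside the uncaptured input. Muscle was taken at day 2 after cardiotoxin (CTX), a muscle-damaging venom toxin, had been injected into the tibialis anterior muscle of C57BL/6 mice of both genotypes that had received tamoxifen on 5 days in a row. The METTL3 cKO mice were Pax7CreERT2; METTL3 flox/flox, and the controls (CTL) carried Pax7CreERT2 with wild-type METTL3. In muscle, Pax7 drives the Cre in stem cells, so deletion is aimed at these cells and their descendants and not at the other cells of the tissue. The labels name both muscle as the source and muscle stem cell as the cell type, and the ages of these mice are not given in the sources used here. Each genotype had 1 IP and 1 input library. C2C12, an immortalised mouse myoblast line, had 2 IP libraries and 1 input library. The C2C12 IP libraries are labelled knockout and their input normal, while the study's text names no knockout for this experiment, and the protocol text names both growth and differentiation without saying which stage was sequenced.

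The muscle table holds 1 set of values per peak over both genotypes, and each of its 5412 peaks had passed the authors' filter for a difference between the genotypes. A muscle gene without a listed peak may therefore still carry m6A that did not differ. Since the direction of that difference is the authors' own comparison, it is not given here, and nothing below compares cKO with CTL. The C2C12 list gives positions and annotation without any value. With no value per library there is no replicate spread, and no difference below was tested between samples. Neither file holds read counts or expression, so depth is unknown, and neither the knockout nor the labelled cell type could be checked. In bulk muscle, fewer cells of a type and less RNA per cell cannot be told apart, and a listed peak also needs enough RNA to be called.

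In each list the share of Slc genes was close to that of all protein-coding genes, and the listed genes came from most of the transporter families. The RefSeq annotation of GRCm38 holds 375 protein-coding Slc genes, of which 58 (15.5%) were in the muscle table, beside 16.9% of all 21900 protein-coding genes. In the C2C12 list they were 67 (17.9%), beside 17.6% of all protein-coding genes. Both shares lay within a few percentage points of the background, and the 95% Wilson intervals, which cover counting error only, ran from 12.2 to 19.5 in muscle and from 14.3 to 22.1 in C2C12. Of the 51 annotated Slc families, 36 had a gene in either list, and no such count was made for other gene families.

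By cargo, 15 of 32 annotated metal carriers (46.9%) were in at least 1 list, against 99 of 375 Slc genes (26.4%). The share of all protein-coding genes in at least 1 list was not computed. The class shares rest on few genes, have no interval and were not tested. Amino acid carriers gave the largest number, 21 of 63 (33.3%). Nucleotide sugar and acetyl-CoA carriers gave 10 of 28 (35.7%), and inorganic ion and pH carriers 13 of 59 (22%). Mitochondrial carriers gave 12 of 47 (25.5%). Carriers of organic ions, bile acids and drugs gave 2 of 41 (4.88%), both in C2C12 only. None of the 14 carriers of the vesicular and anion families, many of which are known from neurons, was in either list. Expression of the classes in muscle was not measured here, and its part in these shares was not tested.

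**Figure D1:**
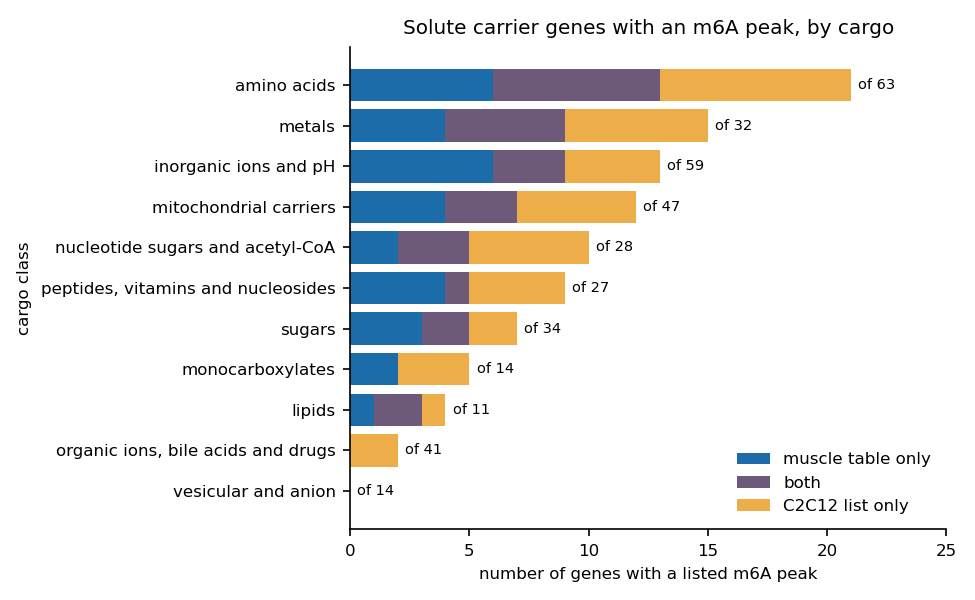
Number of solute carrier genes with a listed m6A peak (x axis) in each cargo class (y axis), split into genes of the muscle table only, of both lists and of the C2C12 list only. The figure after each bar is the number of annotated genes of the class. Amino acid carriers form the longest bar (21 of 63), and the vesicular and anion class has none.

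In muscle the fold enrichment of the Slc peaks spanned a wide range, without reaching the highest values of the table. Here and below, strong and weak refer to this ratio only. Fold enrichment, the ratio of IP to input given by the authors for a peak, ran from 1.58 in Slc3a2 to 1040 in Slc8a3. Over all peaks it ran from 1.06 to 3860. With each gene taken at its strongest peak, the Slc median was 20.9 (quartiles 7.88 and 73.0), beside 19.4 (6.85 and 75.9) over all 3980 genes, and 32 of 58 Slc genes reached the median of the whole table. A value of 100 or more was reached by 11 of 79 Slc peaks (13.9%), beside 15.9% of all peaks. A value under 4 was listed for 15 (19%), beside 19% of all peaks. In these quartiles and shares the Slc genes lay close to the whole table. The authors listed a peak p-value of 0, meaning too small to be written, for 9 Slc peaks (11.4%) and for 17.2% of all peaks. The listed p-values order the peaks differently from the ratio. For example, the Slc7a8 peak at 6.96 had a smaller p-value than the Slc45a4 peak at 67.5.

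**Figure D2:**
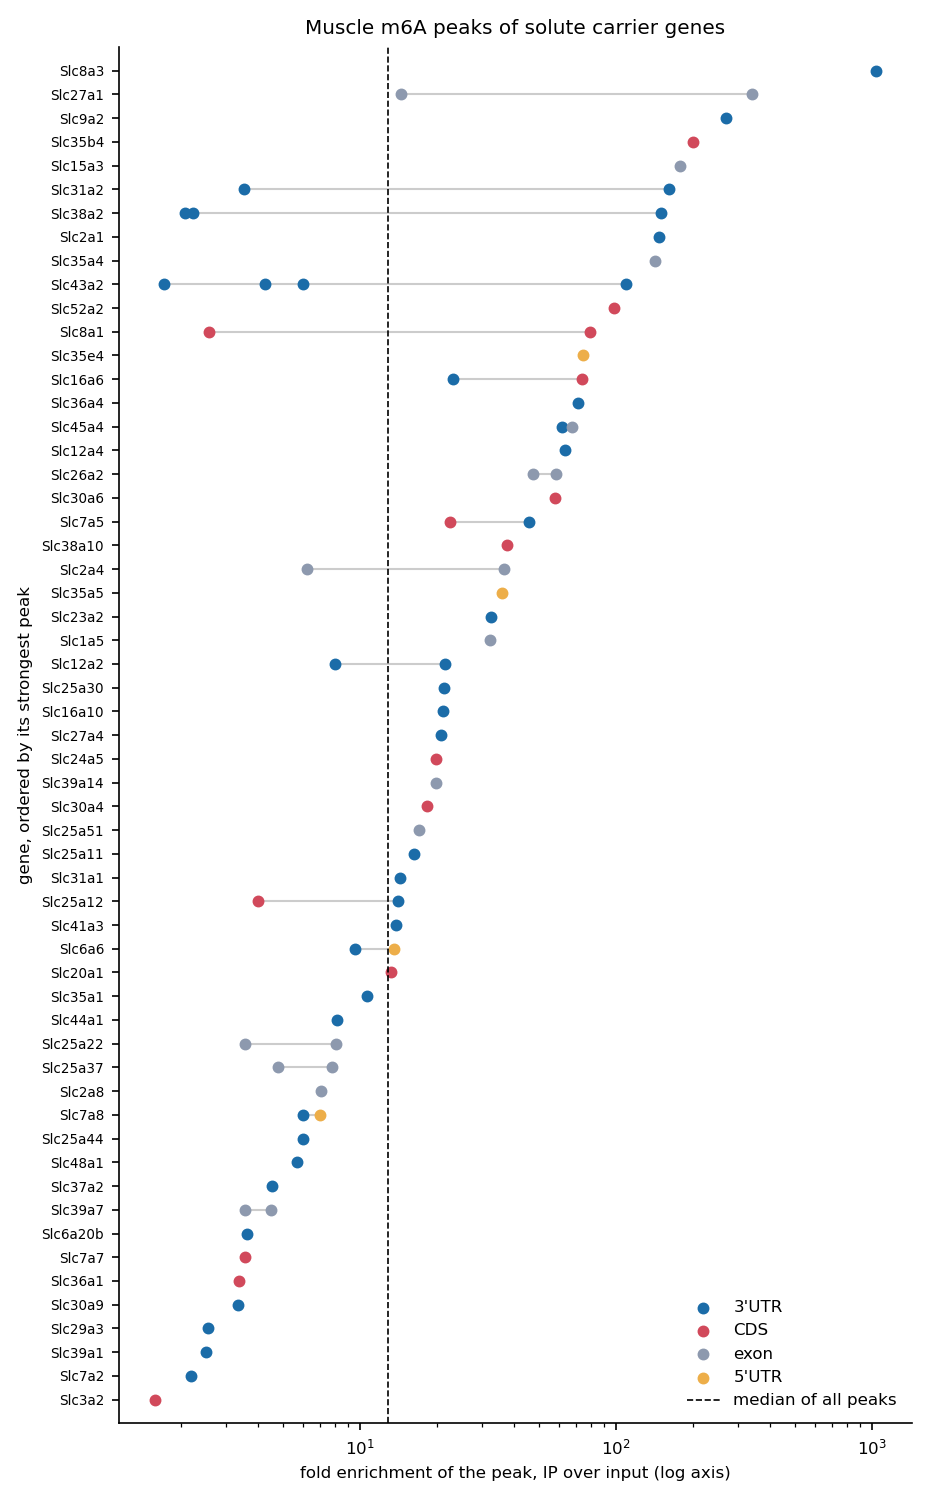
Fold enrichment of IP over input (x axis, log scale) for 77 muscle peaks of 57 solute carrier genes (y axis, ordered by the strongest peak). Colours give the authors' annotation, a grey line joins the peaks of a gene, and the dashed line is the median of all 5412 peaks (12.9). Slc8a3 stands alone at 1040, and the gap between peaks of a gene is widest in Slc38a2 and Slc43a2.

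Carriers of inorganic ions held the strongest peak. Slc8a3 encodes NCX3, a sodium-calcium exchanger found in skeletal muscle and brain, and its single peak in the 3'UTR (GRCm38 chr12:81198724-81199682, minus strand, 959 bp) had a fold enrichment of 1040 and 5 GGAC sites. It ranked 20 among all genes of the table. Slc8a1, the related exchanger NCX1 that dominates in heart, had a CDS peak at 79 and a weaker CDS peak at 2.58 close by. Slc9a2, a sodium-proton exchanger that sets cell pH, reached 269 in its 3'UTR (chr1:40767685-40768404, plus strand), where only 1 GGAC site was listed. Slc12a2, the sodium-potassium-chloride cotransporter NKCC1, was lower, with 3'UTR peaks at 21.5 and 8.02. Over the 9 ion carriers the median of the strongest peaks was 63.1, beside 19.4 for all genes, and 8 of 9 reached the latter. The exception was Slc20a1, the phosphate carrier PiT1, with a CDS peak at 13.2.

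Carriers of metabolic fuel were led by the fatty acid carrier Slc27a1. Its strongest peak (chr8:71585427-71586913, plus strand, in 2 exon blocks) had a fold enrichment of 342, second among the Slc genes, and its other peak reached 14.5. Both fall in the exon class, which the authors used for exonic peaks not assigned to the CDS or a UTR. Slc2a1, the basal glucose carrier GLUT1, had a single 3'UTR peak at 147 (chr4:119135813-119137354, plus strand) with 11 GGAC sites in 1229 bp. Slc2a4, the insulin-responsive carrier GLUT4 of muscle fibres and fat, had exon-class peaks at 36.7 and 6.2. GLUT1 thus had the higher value of the pair, although the ratio describes enrichment at a peak and not the amount of mRNA. The monocarboxylate family was led by Slc16a6 at 73.6 in the CDS.

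Peaks of amino acid carriers ranged from 1.58 to 150, and their strongest peaks had a median of 13.6, with 6 of 13 genes reaching the table's median. Slc38a2 encodes SNAT2, a sodium-coupled carrier of small neutral amino acids known to rise when amino acids are scarce. Its 3 peaks all lay in the 3'UTR, at 150 (chr15:96687871-96688319, minus strand), 2.22 and 2.07. Slc43a2, the branched-chain amino acid carrier LAT4, had 4 peaks in its 3'UTR, the most of any Slc gene in muscle, at 110 (chr11:75571776-75573589, plus strand), 5.98, 4.25 and 1.71. In both genes 1 peak stood far above its neighbours in the same UTR.

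The heavy and light chain of the large neutral amino acid carrier stood far apart. Slc7a5, the light chain LAT1, had a 3'UTR peak at 45.7 with 9 GGAC sites and a CDS peak at 22.5 near the start of the gene. Slc3a2, its heavy chain CD98hc, had a single CDS peak of 121 bp at 1.58, the lowest of all 79 Slc peaks. Slc1a5, the glutamine carrier ASCT2, reached 32.2 in an exon-class peak. The taurine carrier Slc6a6 had a 5'UTR peak at 13.6 and a 3'UTR peak at 9.61, one at each end of the transcript.

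Among metal carriers, the copper carrier Slc31a2 stood far above the rest, with a 3'UTR peak at 162 (chr4:62297036-62297903, plus strand) and a second at 3.54. The next was Slc30a6, which loads zinc into the Golgi, with a CDS peak at 57.7. The zinc and iron carrier Slc39a14 (ZIP14) had an exon-class peak at 19.8. The median of the 9 metal carriers was 14.4, and 3 of them reached the table's median.

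Peaks of the nucleotide sugar and acetyl-CoA carriers ran from 299 bp in Slc35a1 to 2100 bp, with a median of 1102 bp. Slc35b4, a nucleotide sugar carrier, had the longest Slc peak, 2100 bp over 3 exon blocks (chr6:34156619-34160488, minus strand), at 201 with 8 GGAC sites. Slc35a4 of the same family reached 142. The 5 carriers of this class had a median of 74.4. Slc15a3, a peptide and histidine carrier of the lysosome that is known from macrophages and other immune cells, reached 178 over 1770 bp at chr19:10857593-10859362 and held 13 GGAC sites, the most of any Slc peak. That peak shared 1541 bp with a peak of Tmem132a on the opposite strand, listed with the same fold enrichment of 178. The middle of the Slc15a3 peak lay past the annotated end of Slc15a3. The signal cannot be given to either gene. The peaks of Slc24a5, Slc39a7 and Slc6a20b also overlapped peaks of other genes. Their partners were listed at 18.3, 4.51 and 3.51, beside their own 19.8, 4.5 and 3.62. The peak of Slc6a20b was also the only Slc muscle peak outside the annotated span of its gene. The riboflavin carrier Slc52a2 reached 98.5 in the CDS (chr15:76540752-76541470, plus strand).

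Mitochondrial carriers had no peak above 21.3, the value in the 3'UTR of Slc25a30. Of their 7 genes 1 reached the median of all genes, and 4 of their 10 peaks reached the median of all peaks (12.9). The 10 peaks had a median length of 300 bp, and 4 of them (40%) held a GGAC site, at 2.27 sites per 1000 bp, beside 73.4% and 4.93 over all Slc peaks. Those 4 peaks belonged to Slc25a11, Slc25a22 and Slc25a37. In the middle length class 1 of 6 of these peaks held a site, beside 24 of 33 Slc peaks, and among those of at most 268 bp 2 of 3 did.

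Several peaks on 1 gene were common. Of the 58 Slc genes, 18 (31%) had 2 or more muscle peaks, beside 25% of all genes. The ratio of the highest to the lowest fold enrichment within such a gene had a median of 2.93, beside 4.21 over 995 genes, and ran from 1.10 in Slc45a4 to 72.5 in Slc38a2. In 12 of the 18 genes (66.7%), beside 51.8% of the 995 genes, all peaks had the same annotation.

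In muscle the 3'UTR held the most Slc peaks, as it did over all genes, and in C2C12 the coding exons did. None of the shares below was tested. In muscle, 41 of 79 Slc peaks (51.9%, 95% interval 41.1 to 62.6) were annotated to the 3'UTR, beside 48% of all peaks. The CDS held 15 (19%, 11.9 to 29), beside 31.9%. The exon class held 19 (24.1%, 16 to 34.5), beside 14.9%, and the 5'UTR held 4 (5.06%), beside 5.14%. The intervals treat peaks as independent, although the 79 peaks come from 58 genes, 18 of which have 2 or more. They may therefore be too narrow, and nothing is read from whether the share for all genes lies inside them. Without the exon class, a setting chosen after seeing the data, 68.3% of the remaining Slc peaks and 56.4% of all such peaks were in the 3'UTR. The CDS and the exon class together held 34 Slc peaks (43%), beside 46.8% of all peaks. Of 77 Slc peaks with their middle inside the span of their gene, 42 (54.5%) had it in the last 10% of the gene, beside 51.4% of all such peaks.

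In C2C12 the coding exons held 34 of 84 Slc peaks (40.5%, 30.6 to 51.2), beside 52.6% of all peaks, and the 3'UTR held 30 (35.7%, 26.3 to 46.4), beside 25.9%. Introns held 12 (14.3%) and the 5'UTR 7 (8.33%), beside 12.4% and 6.29%. The remaining peak lay upstream of the start of Slc20a1. The coding share of the Slc peaks was below that of all peaks in both lists, which share 26 of the Slc genes, but in muscle this depends on the exon class. Among genes of that class in muscle, Slc27a1 and Slc35a4 had only a coding exon peak in C2C12. Slc1a5 had a 5'UTR and a coding exon peak there, and Slc39a14 only a 3'UTR peak. Whether the peaks of the 2 lists lie at the same place was not tested.

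**Figure D3:**
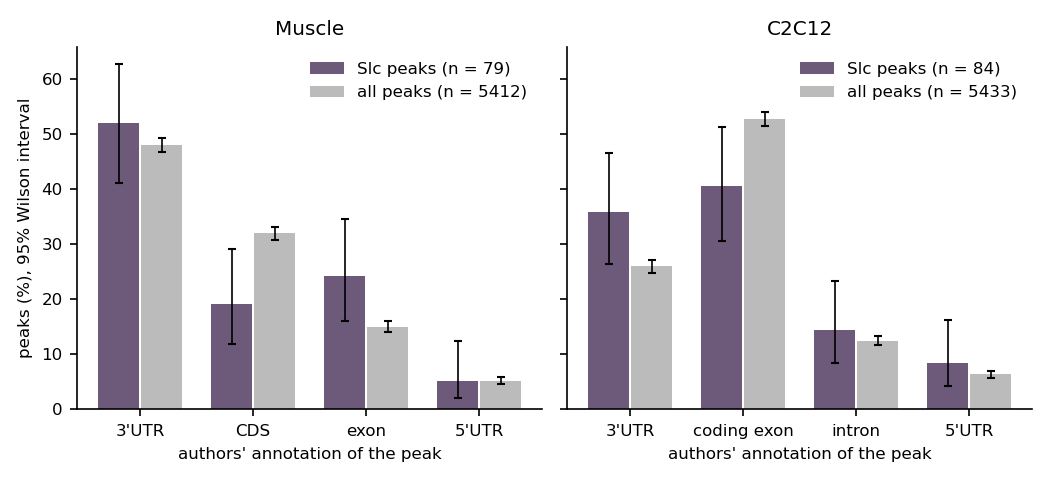
Share of peaks (y axis, percent, with 95% Wilson intervals for counting error) by the authors' annotation (x axis), for solute carrier peaks and for all peaks, in muscle (left) and C2C12 (right). The coding share of the solute carrier peaks is 19% beside 31.9% in muscle and 40.5% beside 52.6% in C2C12. In muscle this depends on the exon class, since the CDS and the exon class together hold 43% beside 46.8%.

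The authors list where GGAC, the core of the m6A motif, occurs in each muscle peak, and the strand they searched is not given in the sources used here. At least 1 site was listed in 58 of 79 Slc peaks (73.4%, 62.8 to 81.9), beside 70.6% of all peaks. The density was 4.93 sites per 1000 bp, 204 sites in all, beside 4.63. Longer and stronger peaks held sites more often, in the Slc genes and over all genes alike. A site was listed in 12 of the 24 Slc peaks shorter than 268 bp, in 24 of 33 peaks of middle length and in all 22 of the longest. For all genes those shares were 42.6%, 73.4% and 96.0%. Among Slc peaks that reached the median peak's fold enrichment of 12.9, 38 of 46 (82.6%) held a site, beside 85.8%, and below it 20 of 33 (60.6%), beside 55.2%.

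Some strong peaks had no listed site. The peak of Slc38a2 at 150 had no listed GGAC site in its 449 bp, and of its neighbours 1 of 2 held a single site. In all, 8 of the 46 stronger Slc peaks had none, so 82.6% held a site, beside 85.8% of all such peaks. The single peaks with most sites were those of Slc15a3 (13, in the peak shared with Tmem132a), Slc38a10 (12), and Slc2a1 and Slc43a2 (11 each). Summed over the peaks of a gene, Slc43a2 had the most, with 17. The median Slc peak was 419 bp long, beside 360 bp for all, and the shortest, in Slc38a2 and Slc39a7, were 120 bp. In 27 of 49 Slc peaks with a site in 1 block (55.1%) the nearest site was within 50 bp of the peak centre, beside 51.4% of all such peaks. A listed GGAC is a match of letters and not a measured m6A base.

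**Figure D4:**
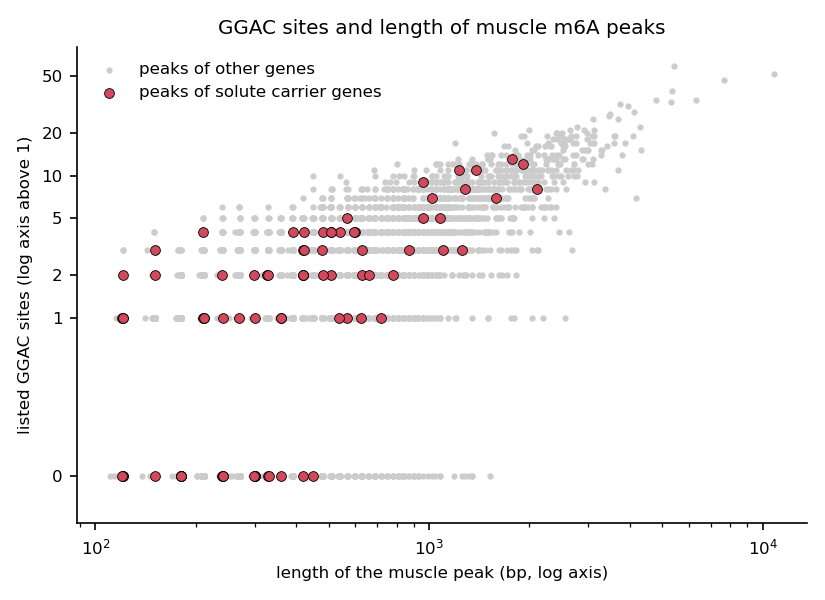
Number of listed GGAC sites (y axis, linear up to 1 and log above) against peak length (x axis, bp, log scale) for the 79 muscle peaks of solute carrier genes and for the peaks of all other genes. Solute carrier peaks lie within the cloud of the others, and the 21 solute carrier peaks without a site are all shorter than those with most sites.

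In C2C12, where the list holds no values, the number and length of peaks are all that ranks the genes. Slc genes had 2 or more peaks in 14 of 67 cases (20.9%), beside 25.8% of all genes, and their peaks covered a median of 290 bp per gene, beside 341 bp. Slc38a10, an amino acid carrier family member, had 3 peaks covering 1921 bp, rank 41 of all 3970 genes, and its longest peak of 1317 bp lay in a coding exon. The nucleotide sugar carrier Slc35b4 had 3 peaks covering 759 bp, 1 in a coding exon and 2 in the 3'UTR. Slc20a2, the phosphate carrier PiT2, had 3 peaks covering 835 bp, in an intron, the 5'UTR and a coding exon.

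Peaks near the start site were few. Within 1000 bp of it lay 6 of 84 Slc peaks (7.14%), beside 11.2% of all peaks. They included the creatine carrier Slc6a8, 58 bp downstream in the 5'UTR, Slc1a5, 440 bp downstream in the 5'UTR, and Slc20a1, at -316 bp, upstream. In 6 of 67 Slc genes (8.96%), beside 8.77% of all genes, every C2C12 peak was in an intron. Slc3a2 was among them.

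The 26 genes in both lists made up 44.8% of the Slc genes in muscle, beside 39.1% of all muscle genes. Of the Slc genes in C2C12 they made up 38.8%, beside 39.2% of all C2C12 genes. Both shares were close to those of all genes. Slc genes in both lists had stronger muscle peaks, with a median of 51.7 against 15.4 for those in the muscle table only, and all genes differed the same way, with 39.4 against 13.5. In C2C12, 9 of the 26 (34.6%) had 2 or more peaks, against 5 of 41 (12.2%) of those in that list only, and for all genes the shares were 32.4% and 21.5%.

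Of the 12 strongest Slc genes in muscle, 8 were also in C2C12: Slc27a1, Slc9a2, Slc35b4, Slc31a2, Slc38a2, Slc2a1, Slc35a4 and Slc52a2. Of the Slc genes that reached the table's median, 17 of 32 were in both lists, beside 994 of 1990 among all genes. No share was computed for all genes as strong as these 12, so nothing is read from the 8. The strongest of all, Slc8a3, was not in C2C12, nor were Slc15a3 and Slc43a2. Slc2a1 had a coding exon peak of 217 bp and a 3'UTR peak of 508 bp in C2C12, the latter in the same region as its muscle peak. Slc7a5 and Slc38a2 had 3'UTR peaks in both lists, of 367 bp and 474 bp in C2C12.

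The region of the peaks differed between the lists for several genes. Leaving out genes with only exon-class peaks in muscle, 11 of 19 Slc genes (57.9%) had a peak in the same region in both lists, beside 69.4% of all such genes. Those 11 were Slc2a1, Slc7a5, Slc38a2, Slc20a1, Slc31a2, Slc35b4, Slc38a10, Slc12a4, Slc30a6, Slc35e4 and Slc36a4. Of the 8 that did not match, Slc9a2 had its muscle peak in the 3'UTR and its C2C12 peak in a coding exon, Slc52a2 had them in the CDS and the 3'UTR, and Slc3a2 in the CDS and an intron. Positions were not compared directly, since only 6 of 84 C2C12 Slc peaks overlapped the GRCm38 span of their gene, against 78 of 79 muscle peaks.

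**Figure D5:**
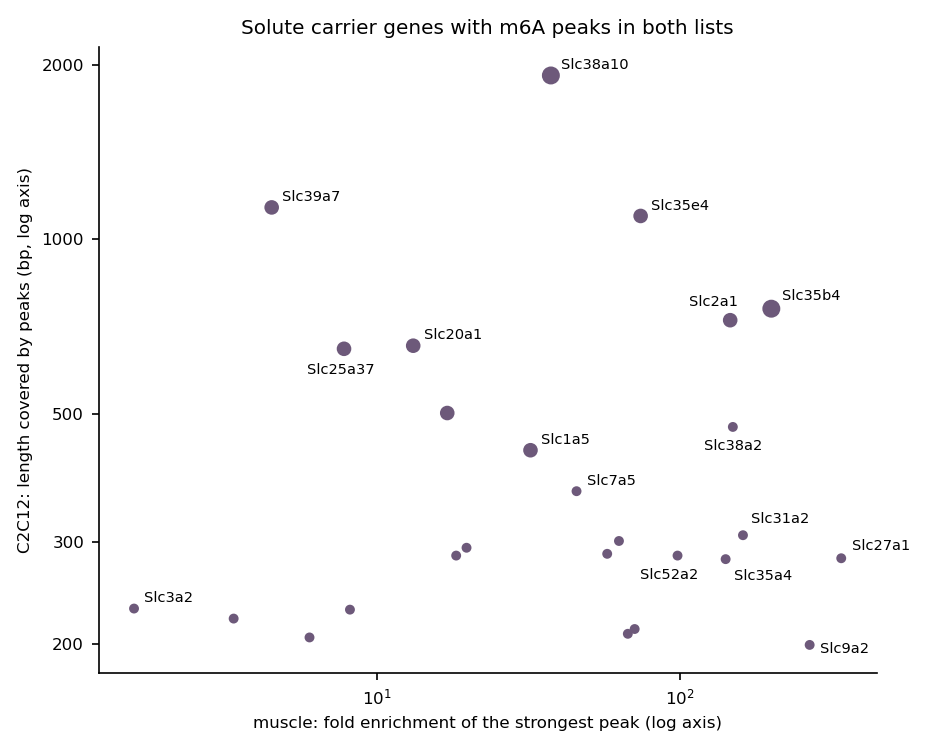
Length covered by peaks in C2C12 (y axis, bp, log scale) against the fold enrichment of the strongest muscle peak (x axis, log scale) for the 26 solute carrier genes in both lists, with larger circles for genes with 2 or 3 C2C12 peaks. The genes are scattered, with Slc38a10 covering 1921 bp at 37.6 in muscle and Slc9a2 covering 199 bp at 269.

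Of 24 transporters that textbooks tie to muscle, myoblasts or macrophages, 20 (83.3%) were in at least 1 list, beside 26.4% of all annotated Slc genes. These transporters were chosen for their known roles with earlier results of these data in view, so nothing is read from that share. Both lists held 8 of them. These were Slc2a1, Slc27a1, the amino acid carriers Slc7a5, Slc3a2, Slc38a2 and Slc1a5, Slc20a1 and Slc39a14. Only the muscle table held Slc2a4, Slc8a1, Slc6a6 and Slc12a2, the first of which is typical of mature fibres. Only the C2C12 list held 8 others. Among these were the lactate carriers Slc16a1 (MCT1), with a coding exon peak of 295 bp, and Slc16a3 (MCT4), with one of 231 bp, and Bsg, the chaperone that brings both to the cell surface, was also in the C2C12 list only. The others were the ADP/ATP carrier Slc25a4, Slc6a8, Slc20a2, the zinc exporter Slc30a1, the cystine carrier Slc7a11 and the iron exporter Slc40a1.

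Neither list held the glucose carrier Slc2a3 (GLUT3), the carnitine carriers Slc25a20 and Slc22a5, or Slc11a1, which pumps metals out of the macrophage phagosome. As the muscle table holds only peaks that differed between the genotypes, absence from it does not show that an mRNA lacked m6A.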

How the data were processed

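Libraries were grouped by the sample labels. The authors mapped the reads and called the peaks, and the submitters' processing notes name TopHat, MACS2 and mm10 without versions, while the column names of the muscle table are those of exomePeak. The deposited muscle table gives each peak's fold enrichment, a ratio of IP to input, and its p-value. The 3 columns in which the authors compare the genotypes (a log2 fold, a p and an FDR) were not used as values; 0 of 5412 rows had an FDR clearly above 0.05. The authors' C2C12 list holds positions and annotation.

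Members and gene lists were chosen with earlier results of these data known. All 58 and 67 member symbols matched the RefSeq annotation of GRCm38 (p6), from which no genome sequence was used, so peak sequences are not shown. Cargo classes follow the family number. A gene's strongest peak represented it. C2C12 positions mostly lay outside the GRCm38 spans of their genes, for a reason that was not tested, and were used only as lengths and distances to the start site. Named were the 12 strongest muscle genes, genes with 3 or more peaks, the strongest gene of each class, the longest and shortest peaks and those with most GGAC sites, and 24 textbook transporters; other names complete a class or a small count and were chosen after their values were seen. One selected gene stays in the counts but is not reported by name here or drawn by name. No tests between samples were possible. Intervals printed for shares are 95% Wilson intervals, and those for shares of peaks treat the peaks of a gene as independent. Alternatives changed the choice of peak, filters and matching. Only the intervals and the share of peaks with a site were checked on simulated data. Python 3.11.15, pandas 2.3.3, numpy 2.4.6, scipy 1.17.1 and matplotlib 3.10.9 were used.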

Additional observations from a re-analysis of the deposited data

How the results depend on the processing

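Over 8 results, 22 alternatives were computed, and 18 of them stayed within the counting interval of the value reported or within 1.5 times of the count. The other 4 moved. The counts fell because fewer genes could be counted, and the cause of the change in the GGAC share was not tested. With the stronger peaks only, those that reached the median of 12.9, 82.6% of Slc peaks held a GGAC site, beside 85.8% of all such peaks. Without the exon class, which was chosen after seeing the data, 68.3% of Slc peaks were in the 3'UTR. The number of Slc genes in both lists fell from 26 to 17 with the muscle genes that reached the table's median and to 9 with genes of at least 2 C2C12 peaks. Also chosen after seeing the data were leaving out peaks that overlap a peak of another gene (median fold enrichment 21.1, GGAC share 73.3%), genes with intron peaks only (24 genes in both lists), Slc7a6os (17.6% of annotated genes) and intron peaks (47.2% in coding exons). No paired analysis was possible because each genotype had 1 library of each kind and neither file gives values per library. For the same reason no library could be left out in turn. Depth is unknown.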

Other observations

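The lists also held other membrane transport genes, which use ATP or are carriers whose symbols do not meet the naming rule. The annotated genes of these groups were not counted, so their numbers cannot be set beside the shares of all genes. ABC transporters, which export substrates by splitting ATP, had 5 genes in the muscle table and 4 in the C2C12 list. Their strongest muscle peaks had a median fold enrichment of 8.55, beside 20.9 for the Slc genes and 19.4 for all genes. Transport ATPases, the sodium and calcium pumps among them, had 10 genes in muscle and 4 in C2C12, with a median of 6.96. Carriers with Mfsd and Slco names had 8 genes in muscle and 2 in C2C12, with a median of 22.2. Mpc2, a subunit of the mitochondrial pyruvate carrier, was in the C2C12 list only.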
